A study of Homo sapiens with 18 samples.

Results

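Interferon-stimulated effector genes are the genes that cells switch on after sensing interferon and whose products block viruses or tune the response. The 45 members described here form a fixed list of gene symbols, and all 45 were found among the 40916 symbols of the count tables. RNA was counted in 18 libraries, 3 biological replicates in each of 6 groups. MCF10A, a non-transformed human mammary epithelial line carrying a GFP-tagged histone H2B, was grown alone without irradiation (NIR) or with 10 Gy (IR). HCT116, a human colorectal carcinoma line carrying no label, was grown alone under the same 2 conditions. Mixed cultures seeded from both lines in equal parts were also kept unirradiated or given 10 Gy. MCF10A grew in an F12 and DMEM mixture with horse serum, EGF, hydrocortisone, cholera toxin and insulin and HCT116 in McCoy's medium with fetal bovine serum. These media move with the line, so line and medium cannot be told apart, and the medium of the mixed cultures was not given in the sources used here. Cells were harvested on day 2 according to the titles of the samples, or after 72 h according to the text of the series.

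Type I and type III interferons bind receptors on the cell surface, and the receptor-bound kinases JAK1 and TYK2 phosphorylate transcription factors such as STAT2. A complex with IRF9 then enters the nucleus and binds the interferon-stimulated response element, a repeat of the letters GAAA, in the promoters of the genes listed here, whereas interferon gamma acts through the GAS element. In irradiated epithelial and tumour cells these genes are known to be induced when self DNA or RNA in the cytosol engages sensors such as CGAS or RIG-I.

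Library totals ranged from 25737818 to 40839835 counts, and each library held counts for 42 to 45 of the 45 members. Values below are CPM, which scale each library to a total of 1e+06 counts. The 10 basal mammary markers summed to at least 10910 CPM in every MCF10A library and to at most 1154 CPM in every HCT116 library. The 8 intestinal markers summed to at most 11.2 CPM in MCF10A, where 4 of them were at 0, and to at least 310 CPM in HCT116. Nearly all of that sum was EPCAM, a general epithelial gene, at means of 315 and 301 CPM in HCT116 NIR and IR. CDX2 averaged 10.0 and 12.6 CPM there, while VIL1, CDH17, LGALS4 and GPA33 were below 1 CPM and CDX1 at 0. The 7 leukocyte markers summed to at most 4.05 CPM in any library, with 2 to 5 of them at 0 in each group.

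From genes specific to each line, MCF10A RNA made up 0.447% ± 0.053 of the RNA in the NIR mixed libraries and 1.24% ± 0.065 in the IR mixed libraries (SD, n = 3). The 3 irradiated values (1.29%, 1.17% and 1.27%) lay above the 3 unirradiated ones (0.504%, 0.439% and 0.399%), and the 2-sided exact permutation test gave p = 0.1, the smallest that 3 against 3 libraries allow. Taken from the upper quartile of the markers' ratios in place of the median, the shares were 1.08% and 2.48%. The SD is between libraries and does not cover the spread between genes. In irradiated mixed cultures VIM averaged 4.47 CPM against 459 CPM in irradiated MCF10A, and TNC 13.7 against 79.9 CPM. No single share therefore holds for every gene. The mixed libraries therefore held HCT116 RNA almost throughout, although the cultures were described as equal parts. Fewer cells of a type and less RNA per cell cannot be told apart in bulk RNA, and counts per gene do not show which line a member's transcripts came from.

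The promoters show what the list shares in sequence. For 37 of the 45 members the RefSeq table for GRCh38.p14 held a window of 300 bases, from 250 before to 50 after the transcription start. The core of the interferon-stimulated response element, which is GAAA, any 2 bases and GAAA again, was found on either strand in the windows of 28 of these 37 members (75.7%), against 4.38% of the 27305 genes with a window. The longer form that ends in GAAACT, a subset of the first, was found in 19 members (51.4%) against 0.322% of all genes. TTCNNNGAA, the GAS-like palindrome, searched on both strands, was found in 11 members (29.7%) against 9.38%. The windows of CMPK2, HELZ2, HERC6, IFI35, OAS1, SAMD9L, SP110, TRIM25 and XAF1 held no match to the shorter form. A match is a run of letters and was not tested as a binding site. Of 50 member windows, 47 ended inside an annotated GENCODE v29 transcript.

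Stretches around the match are printed below, 5′ to 3′ on the strand of the gene, with the shorter form or its reverse complement in capitals. They are shown for members on which the results turn and that differ in how the matches are arranged, from IFI44L and IFI6, with the largest rise in mixed cultures among the genes printed, to IFITM1 and IFITM3, which fell in MCF10A.
IFI44L chr1:78620269-78620399 (plus strand): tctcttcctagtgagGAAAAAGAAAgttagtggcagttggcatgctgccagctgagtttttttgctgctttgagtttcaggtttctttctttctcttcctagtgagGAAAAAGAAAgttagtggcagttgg
IFI6 chr1:27672261-27672363 (minus strand): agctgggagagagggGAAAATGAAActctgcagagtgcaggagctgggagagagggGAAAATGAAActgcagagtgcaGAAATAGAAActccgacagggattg
IFIT1 chr10:89392492-89392544 (plus strand): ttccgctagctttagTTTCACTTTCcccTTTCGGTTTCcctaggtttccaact
ISG15 chr1:1013369-1013414 (plus strand): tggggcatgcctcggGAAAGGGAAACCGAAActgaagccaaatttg
IFITM1 chr11:313985-314058 (plus strand): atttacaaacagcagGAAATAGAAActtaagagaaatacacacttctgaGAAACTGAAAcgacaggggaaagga
IFITM3 chr11:320871-320927 (minus strand): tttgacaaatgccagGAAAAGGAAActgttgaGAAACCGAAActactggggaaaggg
SAMD9 chr7:93118091-93118130 (minus strand): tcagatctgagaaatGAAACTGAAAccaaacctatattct
LGALS3BP chr17:78979957-78979996 (minus strand): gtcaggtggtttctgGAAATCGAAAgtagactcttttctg
IFI44L held the same run of 40 bases in 2 copies, each with 1 match, and IFI6 a run of 27 bases in 2 copies plus a further match. The other 6 stretches held no repeat of this kind. IFIT1 carried its 2 matches as the reverse complement, and the 2 matches of ISG15 overlapped.

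Irradiation was followed by higher levels of most members in all kinds of culture, and most broadly in the mixed cultures. In MCF10A, 26 members rose and 8 fell, 7 did not pass the test and 4 were too low to be tested (edgeR's quasi-likelihood test, Benjamini-Hochberg adjusted p under 0.05 over all genes). Of the 15154 genes tested in MCF10A, 26.2% were called higher and 29.2% lower. In HCT116, 28 members rose, 0 fell, 14 did not pass and 3 were not tested, where 25.3% of 16857 genes were called higher and 27.2% lower. In the mixed cultures, 41 members rose, 0 fell, 2 did not pass and 2 were not tested, where 24% of 16906 genes were called higher and 25.4% lower. Some called members passed the filter on low counts (0.281 to 0.316 CPM in at least 3 libraries) with the help of their irradiated libraries. IFI27 and RSAD2 in MCF10A and MX2 in mixed cultures reached that level in 0 of 3 unirradiated libraries, HERC5 in MCF10A and SAMD9L in HCT116 and mixed cultures in 1 of 3, and MX1 in MCF10A in 2 of 3. Their calls are not read as support. Among members with all 6 libraries at that level, 22 of 37 rose and 8 fell in MCF10A, 27 of 40 rose in HCT116 and 39 of 41 in mixed cultures. The shares of all genes so restricted were 26.3% higher and 32.5% lower in MCF10A, 26.8% and 29.8% in HCT116, and 24.8% and 28.1% in mixed cultures. In HCT116 and in the mixed cultures, the count of lower members at an unadjusted p under 0.05 was also 0, and it was 0 with DESeq2. The median log2 fold change was 0.49 over the members tested in MCF10A, 0.57 in HCT116 and 0.99 in the mixed cultures, against medians near 0 over all genes tested (0.0035, 0.0072 and 0.012). With upper-quartile scaling the share of higher genes among all called in MCF10A was 57.5% in place of 47.4%, and the median of the members less that of all genes stayed at 0.49.

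**Figure D1:**
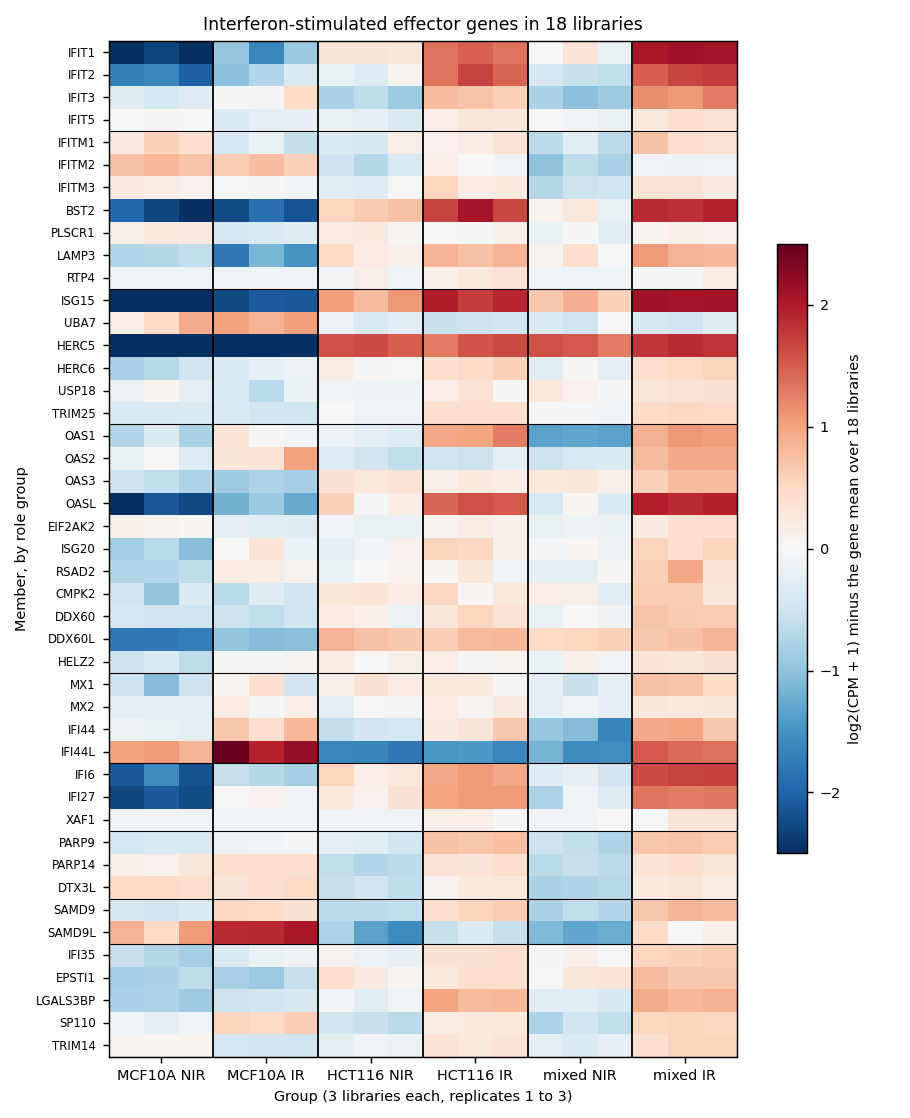
Levels of the 45 members (rows, by role group) in the 18 libraries (columns, 3 per group), as log2(CPM + 1) minus the gene's mean over all libraries, with the colours capped at -2.5 and 2.5. The irradiated mixed libraries at the right are the reddest block, while IFI44L and SAMD9L are highest in irradiated MCF10A.

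The 3 irradiation responses fell into a few patterns. The share of all genes with each pattern was not counted, so the patterns only describe the members. HCT116 and mixed cultures do not stand for separate lines, as the mixed libraries held HCT116 RNA almost throughout. Higher levels in all 3 kinds of culture were called for 18 members: IFI6, IFI27, IFI35, IFI44, IFIT1, IFIT2, IFIT3, ISG15, ISG20, OAS1, OASL, HERC6, SAMD9, SAMD9L, PARP9, PARP14, LGALS3BP and SP110. IFI27 in MCF10A and SAMD9L in HCT116 and mixed cultures are in that count with unirradiated libraries below the filter level. A rise in MCF10A and in mixed cultures, with no call in HCT116, was seen for 7 members: IFI44L, MX1, OAS2, RSAD2, HERC5, DDX60L and HELZ2, of which MX1, RSAD2 and HERC5 had unirradiated MCF10A libraries below that level. A fall in MCF10A and a rise in HCT116 and mixed cultures was seen for 5: IFIT5, IFITM3, TRIM14, LAMP3 and EIF2AK2. IFITM2, BST2, DDX60, DTX3L and TRIM25 rose in HCT116 and mixed cultures without a call in MCF10A. IFITM1, OAS3 and PLSCR1 fell in MCF10A, had no call in HCT116 and rose in mixed cultures. UBA7 was called higher in MCF10A and in neither other culture. CMPK2 was called higher in mixed cultures and in neither monoculture, but the difference between its responses in mixed cultures and HCT116 (0.68 on the log2 scale) did not pass the test (adjusted p = 0.469, edgeR). USP18, the protease that removes ISG15 from proteins, was called in none. EPSTI1 could not be tested in MCF10A, had no call in HCT116 and was higher in mixed cultures, a call that DESeq2 did not make and that was lost without mixed NIR replicate 1 or any 1 of the 3 mixed IR libraries (0.57 to 0.84). MX2 was tested for irradiation in mixed cultures and in neither monoculture. XAF1 and RTP4 were too low to test.

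**Figure D2:**
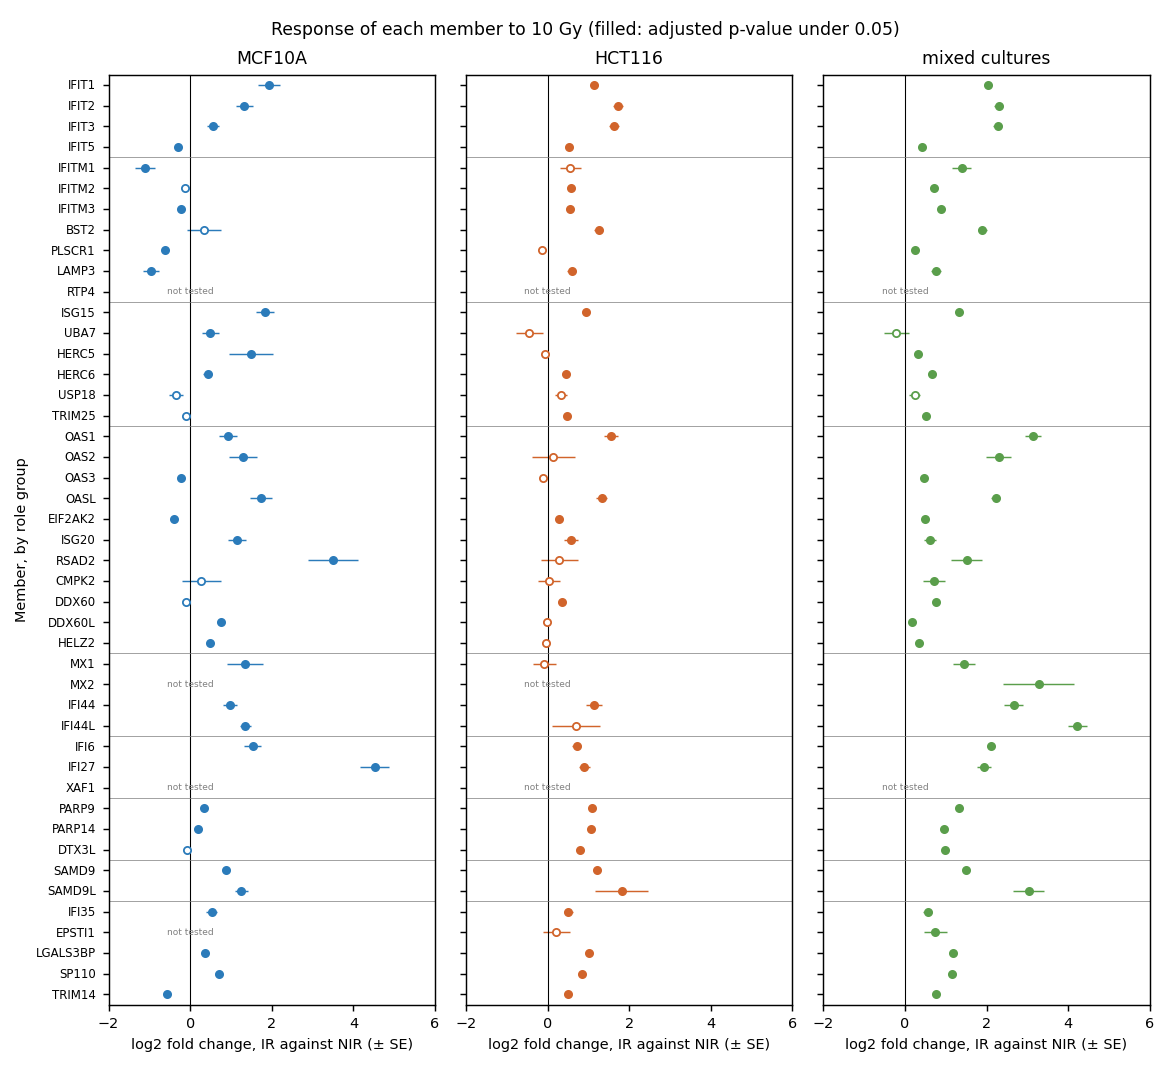
Log2 fold change of each member after 10 Gy (points, with bars of 1 SE, 3 against 3 libraries) in MCF10A, HCT116 and mixed cultures, with filled points for adjusted p under 0.05. In MCF10A 4 of the 6 tested in the group from IFITM1 to RTP4 lie left of 0 with filled points. None of that group lies right of 0 with one, while IFI6 and IFI27, membrane proteins grouped apart, do. In mixed cultures every tested member except UBA7 lies right of 0.

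The IFIT proteins bind foreign RNA ends and block its translation. Their 4 genes form one cluster on chromosome 10, from IFIT2 at chr10:89302046-89309271 to IFIT5 at chr10:89414568-89420997 (GRCh38, RefSeq, as for all gene positions here). In MCF10A, 3 of the 4 rose and IFIT5 fell (26.2% and 29.2% of all genes), and all 4 rose in HCT116 (25.3%) and in mixed cultures (24%). In MCF10A, IFIT1 was at 0.882, 2.22 and 1.64 CPM without irradiation and 7.13, 4.05 and 7.23 CPM after it. In HCT116 IFIT1 was higher throughout, at 18.8, 18.6 and 18.0 CPM without irradiation and 39.1, 43.0 and 39.5 CPM after it. The mixed cultures held IFIT1 at 14.6, 19.0 and 12.8 CPM without irradiation and 63.4, 66.5 and 64.2 CPM after it. In each culture the irradiated libraries lay above all unirradiated ones, and the irradiated mixed libraries were the highest of the 18. The log2 fold changes of IFIT1 were 1.93 ± 0.27 (SE, adjusted p = 5.29e-07) in MCF10A, 1.14 ± 0.087 (SE, adjusted p = 1.55e-10) in HCT116 and 2.04 ± 0.10 (SE, adjusted p = 1.28e-12) in mixed cultures by edgeR.

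IFIT2, which partners IFIT1 and IFIT3, showed the largest rise in HCT116 among members of at least 5 CPM. In HCT116 IFIT2 was at 10.2, 9.07 and 12.3 CPM without irradiation and 31.2, 39.5 and 33.5 CPM after it. The mixed cultures gave IFIT2 at 8.37, 7.56 and 7.17 CPM without irradiation and 34.3, 39.6 and 41.2 CPM after it, and MCF10A gave 2.88, 3.07 and 2.05 CPM without irradiation and 5.07, 6.57 and 8.70 CPM after it. Irradiated HCT116 and irradiated mixed libraries overlapped, and both lay far above irradiated MCF10A. IFIT2 changed by 1.73 ± 0.12 (SE, adjusted p = 2.40e-11) on the log2 scale in HCT116 by edgeR. Part of its exons (6.88% of 75-base words) is shared with an overlapping gene model, AL353751.1.

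IFIT3 bridges IFIT1 and IFIT2 in one complex. In MCF10A IFIT3 was at 8.29, 7.49 and 8.13 CPM without irradiation and 10.7, 10.2 and 14.7 CPM after it. HCT116 held IFIT3 at 5.64, 6.43 and 5.14 CPM without irradiation and 18.8, 17.9 and 16.2 CPM after it. In mixed cultures IFIT3 stood at 5.62, 4.56 and 5.23 CPM without irradiation and 24.7, 23.4 and 27.4 CPM after it. Without irradiation all MCF10A libraries were above all HCT116 and mixed libraries, and after it they were below them. IFIT5, which binds single RNA strands by itself, changed by -0.30 in MCF10A, 0.52 in HCT116 and 0.43 in mixed cultures on the log2 scale.

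A group of 7 membrane proteins (IFITM1, IFITM2, IFITM3, BST2, PLSCR1, LAMP3 and RTP4) includes proteins that block virus entry or release. In this group none of the 6 tested in MCF10A rose there and 4 fell (IFITM1, IFITM3, PLSCR1 and LAMP3). In HCT116 4 of the 6 rose, and in mixed cultures 6 of 6. IFI6 and IFI27, also membrane proteins, were grouped apart and were called higher in MCF10A, IFI27 from below the filter level. Of all genes 26.2% rose and 29.2% fell in MCF10A, and 25.3% and 24% rose in HCT116 and in mixed cultures. No member of the group was called higher in MCF10A at an unadjusted p under 0.05. IFITM1, which sits in the plasma membrane and hinders virus fusion, was at 3.47, 4.65 and 4.03 CPM without irradiation and 1.84, 2.41 and 1.53 CPM after it in MCF10A. In HCT116 IFITM1 was at 1.97, 1.90 and 3.22 CPM without irradiation and 3.11, 3.33 and 3.92 CPM after it. Mixed cultures had IFITM1 at 1.43, 2.13 and 1.42 CPM without irradiation and 5.36, 4.14 and 3.89 CPM after it. The MCF10A libraries moved down without overlap, the HCT116 libraries overlapped between conditions and the mixed libraries moved up without overlap. The log2 fold changes were -1.10 ± 0.24 (SE, adjusted p = 2.65e-04) in MCF10A, 0.56 ± 0.25 (SE, adjusted p = 0.0694) in HCT116 and 1.39 ± 0.24 (SE, adjusted p = 5.01e-05) in mixed cultures by edgeR. IFITM1 and IFITM2 share 32.5% and 22.7% of their exon bases in the annotation, so counts could be split between them.

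IFITM3, which acts in endosomes, was one of the most abundant members. In MCF10A it was at 158, 154 and 145 CPM without irradiation and 133, 131 and 129 CPM after it. In HCT116 IFITM3 was at 112, 108 and 134 CPM without irradiation and 195, 156 and 160.2 CPM after it. Mixed cultures had IFITM3 at 81.9, 92.0 and 95.1 CPM without irradiation and 173, 173 and 158 CPM after it. The MCF10A libraries were lower after irradiation without overlap and the other cultures higher without overlap, with changes of -0.24 ± 0.047 (SE, adjusted p = 9.50e-05) in MCF10A and 0.54 ± 0.085 (SE, adjusted p = 1.08e-05) in HCT116 by edgeR. IFITM2, its close relative, was at a log2 fold change of -0.12 (adjusted p = 0.107, edgeR) in MCF10A and rose by 0.58 and 0.71 in HCT116 and mixed cultures on the log2 scale. Exons on the opposite strand overlap 21.3% of IFITM3.

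BST2, also called tetherin, holds budding virus at the cell surface. In MCF10A BST2 was low, at 1.35, 0.902 and 0.478 CPM without irradiation and 0.955, 1.53 and 1.06 CPM after it. In HCT116 it was at 12.3, 13.4 and 14.3 CPM without irradiation and 28.8, 37.6 and 28.3 CPM after it. The mixed cultures gave BST2 at 8.80, 10.1 and 7.12 CPM without irradiation and 32.7, 31.5 and 34.1 CPM after it. Only MCF10A libraries overlapped between conditions, and BST2 rose by 1.25 ± 0.12 (SE, adjusted p = 3.44e-09) in HCT116 and 1.89 ± 0.11 (SE, adjusted p = 1.06e-11) in mixed cultures on the log2 scale by edgeR.

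LAMP3, a lysosomal membrane protein, showed the largest fall in MCF10A among members of at least 5 CPM. In MCF10A LAMP3 was at 5.82, 5.92 and 6.35 CPM without irradiation and 2.28, 4.08 and 3.06 CPM after it. In HCT116 LAMP3 was at 14.5, 12.0 and 11.3 CPM without irradiation and 19.5, 17.6 and 19.4 CPM after it. Mixed cultures held LAMP3 at 11.0, 13.8 and 10.2 CPM without irradiation and 22.5, 19.3 and 19.0 CPM after it. In each of the 3 cultures the conditions did not overlap, downward in MCF10A by -0.96 ± 0.20 and upward in HCT116 by 0.59 ± 0.11 on the log2 scale (SE, adjusted p = 1.49e-04 and 1.41e-04, edgeR).

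PLSCR1, a phospholipid scramblase that also limits virus entry, was at 55.3, 59.6 and 58.5 CPM without irradiation and 36.6, 38.6 and 40.0 CPM after it in MCF10A. In HCT116 PLSCR1 was at 57.4, 59.2 and 51.6 CPM without irradiation and 49.1, 48.9 and 54.5 CPM after it. Mixed cultures had it at 44.2, 48.8 and 40.4 CPM without irradiation and 52.8, 54.3 and 53.9 CPM after it. The fall in MCF10A was -0.61 ± 0.066 (SE, adjusted p = 5.96e-09) on the log2 scale by edgeR, and the rise in mixed cultures, 0.25 ± 0.076 (SE, adjusted p = 0.0103), was no longer called without mixed NIR replicate 3 or without mixed IR replicate 2 (0.17 to 0.32 with 1 library left out). RTP4, a chaperone of membrane receptors, was listed at 0 in all MCF10A libraries and reached at most 0.389 CPM, in HCT116 IR.

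ISG15 is a ubiquitin-like protein that is joined to other proteins by UBA7, the activating enzyme, and by HERC5, the main ligase. ISG15 was among the members that differed most between the lines. In MCF10A ISG15 was at 1.65, 1.18 and 1.54 CPM without irradiation and 4.78, 5.54 and 5.47 CPM after it. In HCT116 it was at 55.1, 47.0 and 57.6 CPM without irradiation and 108, 92.5 and 102 CPM after it. Mixed cultures gave ISG15 at 43.2, 51.3 and 41.1 CPM without irradiation and 118, 114 and 116 CPM after it. No libraries overlapped between conditions in any culture. The log2 fold change was 1.84 ± 0.23 (SE, adjusted p = 6.63e-08) in MCF10A, 0.93 ± 0.078 (SE, adjusted p = 7.71e-10) in HCT116 and 1.33 ± 0.076 (SE, adjusted p = 5.91e-12) in mixed cultures by edgeR.

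HERC5 was nearly silent in MCF10A, at 0.235, 0.169 and 0.342 CPM without irradiation and 0.661, 0.876 and 0.588 CPM after it. In HCT116 HERC5 was abundant, at 38.7, 39.8 and 36.1 CPM without irradiation and 31.2, 38.6 and 40.4 CPM after it. Mixed cultures held HERC5 at 38.8, 37.4 and 31.7 CPM without irradiation and 44.7, 47.4 and 45.3 CPM after it. The HCT116 libraries overlapped between conditions and the mixed libraries did not. The difference in MCF10A, 1.49 ± 0.55 (SE, adjusted p = 0.0231) on the log2 scale by edgeR, with 2 of 3 unirradiated libraries below the filter level, was not called by DESeq2, and leaving out NIR replicate 1 or 2 or IR replicate 1 or 2 of MCF10A also ended the call (1.28 to 1.77).

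UBA7 had its highest levels in MCF10A, at 2.62, 3.44 and 5.16 CPM without irradiation and 5.48, 4.89 and 5.56 CPM after it. In HCT116 it was at 1.94, 1.49 and 1.66 CPM without irradiation and 1.19, 1.22 and 1.32 CPM after it, and mixed cultures had 1.50, 1.30 and 2.20 CPM without irradiation and 1.44, 1.34 and 1.63 CPM after it. The MCF10A conditions overlapped, the rise of 0.49 ± 0.21 (SE, adjusted p = 0.0457) by edgeR was not called by DESeq2, and it was lost when any library except MCF10A NIR replicate 3 was left out (0.29 to 0.78). HERC6, a relative of HERC5, rose by 0.43, 0.45 and 0.67 on the log2 scale in MCF10A, HCT116 and mixed cultures. TRIM25, a ligase that also conjugates ISG15, rose in HCT116 (0.47) and mixed cultures (0.52).

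Called counts for the 11 genes for RNA sensing and for nucleic acid or nucleotide enzymes were highest in mixed cultures. In MCF10A 7 were called higher, RSAD2 among them, and 2 fell, in HCT116 5 rose and 0 fell (edgeR; also 0 at an unadjusted p under 0.05 and with DESeq2), and in mixed cultures all 11 rose. Of all genes 26.2% rose and 29.2% fell in MCF10A, 25.3% and 27.2% in HCT116, and 24% and 25.4% in mixed cultures, so the 2 that fell in MCF10A (OAS3 and EIF2AK2) are no more than that share. The OAS enzymes make short adenylate chains that activate RNase L, and OAS1, OAS3 and OAS2 lie next to each other on chromosome 12, from chr12:112906962-112933219 to chr12:112978519-113011723. In MCF10A OAS1 was at 2.06, 2.93 and 1.95 CPM without irradiation and 5.40, 4.20 and 3.85 CPM after it. In HCT116 it was at 3.56, 3.32 and 3.08 CPM without irradiation and 8.86, 9.04 and 11.4 CPM after it. In mixed cultures OAS1 was at 1.00, 1.07 and 1.00 CPM without irradiation and 8.42, 9.76 and 9.41 CPM after it. The unirradiated mixed libraries were the lowest of all 18 and the irradiated ones overlapped with irradiated HCT116. OAS1 rose by 0.92 ± 0.23 (SE, adjusted p = 0.00105) in MCF10A, 1.55 ± 0.17 (SE, adjusted p = 3.65e-08) in HCT116 and 3.14 ± 0.19 (SE, adjusted p = 1.53e-11) in mixed cultures by edgeR.

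OAS2 was low in both lines, at 0.853, 1.07 and 0.683 CPM without irradiation and 1.62, 1.68 and 3.20 CPM after it in MCF10A. In HCT116 OAS2 was at 0.665, 0.528 and 0.362 CPM without irradiation and 0.518, 0.441 and 0.777 CPM after it. Mixed cultures had OAS2 at 0.465, 0.606 and 0.639 CPM without irradiation and 2.64, 3.05 and 3.01 CPM after it. The irradiated mixed libraries stood apart from all HCT116 libraries and from the unirradiated mixed ones. The rise of OAS2 in MCF10A (1.29 on the log2 scale) was lost without MCF10A IR replicate 3 (0.89). OAS3 fell slightly in MCF10A (-0.23, not called with upper-quartile scaling), had no call in HCT116 (-0.12, adjusted p = 0.101, edgeR) and rose in mixed cultures (0.46). OASL, which lacks the enzyme activity, rose in all 3 by 1.73, 1.32 and 2.23. EIF2AK2, the kinase PKR that halts translation on sensing double-stranded RNA, fell by 0.39 on the log2 scale in MCF10A and rose by 0.29 in HCT116 and 0.50 in mixed cultures.

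RSAD2 (viperin) and CMPK2 are enzymes that act on nucleotides, and their genes lie next to each other in opposite directions on chromosome 2. RSAD2 averaged 0.0839 ± 0.0457 and 0.977 ± 0.0826 CPM in MCF10A NIR and IR, 0.732 ± 0.164 and 0.878 ± 0.250 CPM in HCT116, and 0.609 ± 0.171 and 1.79 ± 0.590 CPM in mixed cultures (SD, n = 3). It rose in mixed cultures (1.52 on the log2 scale), was at 3.50 in MCF10A, where unirradiated libraries held 2 to 4 counts and were below the filter, and had no call in HCT116 (0.29, adjusted p = 0.618, edgeR). CMPK2 was called in mixed cultures (0.71), a call that DESeq2 did not make and that was lost without mixed NIR replicate 3, mixed IR replicate 1 or mixed IR replicate 2 (0.50 to 0.85). ISG20, an exonuclease, rose in all 3 cultures (1.15, 0.57 and 0.61), and its HCT116 call was lost without HCT116 IR replicate 1 (0.46). DDX60, a helicase that aids RIG-I, rose in HCT116 (0.34) and mixed cultures (0.76). Its neighbour DDX60L rose in MCF10A (0.74), and in mixed cultures by 0.18, a call lost without mixed NIR replicate 1, mixed IR replicate 2 or mixed IR replicate 3 (0.14 to 0.22). HELZ2, a helicase and nuclear receptor coactivator, rose in MCF10A (0.49) and mixed cultures (0.36).

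MX1 and MX2 are dynamin-like GTPases that trap viral capsids, and IFI44 and IFI44L are a related pair with GTP-binding features. IFI44L showed the largest rise of the 43 members tested in mixed cultures. In MCF10A IFI44L (chr1:78620448-78646145) was at 7.41, 7.75 and 6.56 CPM without irradiation and 23.2, 14.8 and 18.3 CPM after it. In HCT116 IFI44L was barely expressed, at 0.347, 0.311 and 0.217 CPM without irradiation and 0.518, 0.539 and 0.350 CPM after it. In mixed cultures IFI44L was at 0.859, 0.404 and 0.417 CPM without irradiation and 11.1, 10.2 and 9.91 CPM after it. The irradiated mixed libraries were above every HCT116 library and below every irradiated MCF10A library. Its log2 fold change was 1.35 ± 0.13 (SE, adjusted p = 1.60e-09) in MCF10A, 0.69 ± 0.59 (SE, adjusted p = 0.34) in HCT116 and 4.23 ± 0.23 (SE, adjusted p = 3.79e-12) in mixed cultures by edgeR.

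IFI44, the neighbour of IFI44L at chr1:78649789-78664078, had means of 4.02 CPM in MCF10A NIR and 3.00 CPM in HCT116 NIR. In MCF10A IFI44 was at 4.23, 4.00 and 3.82 CPM without irradiation and 8.19, 6.68 and 9.14 CPM after it. In HCT116 it was at 2.75, 3.08 and 3.19 CPM without irradiation and 5.64, 6.15 and 8.08 CPM after it. Mixed cultures had IFI44 at 1.97, 1.67 and 0.806 CPM without irradiation and 9.95, 10.4 and 8.12 CPM after it. The unirradiated mixed libraries were the lowest of the 18. IFI44 rose by 0.97 ± 0.16 (SE, adjusted p = 9.27e-06) in MCF10A, 1.14 ± 0.19 (SE, adjusted p = 2.75e-05) in HCT116 and 2.67 ± 0.23 (SE, adjusted p = 4.26e-09) in mixed cultures by edgeR.

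MX1 was at 0.912, 0.282 and 0.922 CPM without irradiation and 1.84, 2.59 and 1.00 CPM after it in MCF10A. In HCT116 MX1 was at 2.02, 2.55 and 2.14 CPM without irradiation and 2.28, 2.23 and 1.79 CPM after it. Mixed cultures had MX1 at 1.32, 0.865 and 1.33 CPM without irradiation and 3.52, 3.48 and 2.76 CPM after it. Conditions overlapped in HCT116 and not in the other cultures. The difference in MCF10A, 1.34 ± 0.43 (SE, adjusted p = 0.0103) on the log2 scale by edgeR, was lost without MCF10A NIR replicate 2 or MCF10A IR replicate 2 (0.96 to 1.64). MX2 had no counts in the 3 unirradiated MCF10A libraries and stayed at or below 0.454 CPM in all others.

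IFI6 and IFI27 encode small membrane proteins of mitochondria and the endoplasmic reticulum, IFI6 with a protective and IFI27 with a promoting role in cell death, and XAF1 opposes an inhibitor of apoptosis. In MCF10A IFI6 (chr1:27666064-27672192) was at 1.82, 2.99 and 1.67 CPM without irradiation and 7.09, 6.31 and 5.79 CPM after it. In HCT116 IFI6 was at 16.4, 12.6 and 13.4 CPM without irradiation and 22.5, 24.3 and 22.1 CPM after it. Mixed cultures had IFI6 at 8.66, 9.49 and 7.70 CPM without irradiation and 36.3, 38.1 and 38.3 CPM after it. The irradiated mixed libraries were the highest of all 18, and the unirradiated mixed libraries were below all unirradiated HCT116 libraries. IFI6 rose by 1.53 ± 0.22 (SE, adjusted p = 7.03e-07) in MCF10A, 0.71 ± 0.11 (SE, adjusted p = 9.45e-06) in HCT116 and 2.10 ± 0.097 (SE, adjusted p = 2.95e-13) in mixed cultures by edgeR.

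In the unirradiated MCF10A libraries IFI27 held 4 to 10 counts, below the filter, so that its log2 fold change of 4.52 ± 0.35 (SE, adjusted p = 8.83e-12) by edgeR rests on the irradiated libraries having passed. In MCF10A IFI27 was at 0.118, 0.282 and 0.171 CPM without irradiation and 4.52, 4.96 and 4.20 CPM after it. In HCT116 IFI27 was at 5.64, 4.91 and 6.19 CPM without irradiation and 9.99, 10.6 and 10.6 CPM after it. Mixed cultures had IFI27 at 2.22, 4.10 and 3.45 CPM without irradiation and 13.0, 12.6 and 12.7 CPM after it. Conditions did not overlap in any culture. XAF1 was listed at 0 in all 6 MCF10A libraries and the 3 unirradiated HCT116 libraries and reached at most 0.331 CPM, in a mixed IR library, and exons on the opposite strand overlap 38.3% of it.

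PARP9 and DTX3L form a ligase complex that enhances interferon signalling, and PARP14 is an ADP-ribosyltransferase. The genes of PARP9 and DTX3L overlap at their starts in opposite directions (chr3:122527924-122564784 and chr3:122564338-122575203), and PARP14 lies farther along chromosome 3. Whether reads were counted by strand was not given in the sources used here, so reads in the overlap cannot be assigned to one of the pair. In MCF10A PARP9 was at 27.0, 28.5 and 28.3 CPM without irradiation and 33.7, 35.4 and 37.9 CPM after it. In HCT116 PARP9 was at 31.1, 30.8 and 26.3 CPM without irradiation and 62.5, 60.8 and 63.2 CPM after it. Mixed cultures had PARP9 at 25.3, 24.0 and 21.8 CPM without irradiation and 61.0, 61.8 and 57.8 CPM after it. Irradiated HCT116 and mixed libraries overlapped with each other and lay above all MCF10A libraries. PARP9 rose by 0.33, 1.09 and 1.32 on the log2 scale in MCF10A, HCT116 and mixed cultures, and PARP14 by 0.20, 1.06 and 0.97. DTX3L rose in HCT116 (0.80) and mixed cultures (0.99) and was at -0.09 in MCF10A (adjusted p = 0.203, edgeR).

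SAMD9 and SAMD9L, neighbours on chromosome 7, restrict poxviruses and cell growth. In MCF10A SAMD9 was at 50.8, 47.0 and 52.4 CPM without irradiation and 97.3, 92.9 and 87.8 CPM after it. In HCT116 SAMD9 was at 42.7, 42.3 and 43.5 CPM without irradiation and 91.7, 99.0 and 105 CPM after it. Mixed cultures had SAMD9 at 38.5, 43.3 and 40.2 CPM without irradiation and 109, 123 and 118 CPM after it. The irradiated mixed libraries were the highest of the 18, and SAMD9 rose by 0.87 ± 0.058 (SE, adjusted p = 5.07e-13) in MCF10A, 1.21 ± 0.069 (SE, adjusted p = 8.68e-13) in HCT116 and 1.49 ± 0.07 (SE, adjusted p = 3.33e-13) in mixed cultures by edgeR. SAMD9L averaged 4.36 ± 1.05 and 10.5 ± 0.770 CPM in MCF10A, 0.313 ± 0.392 and 1.14 ± 0.202 CPM in HCT116, and 0.301 ± 0.0838 and 2.49 ± 0.604 CPM in mixed cultures, each NIR then IR (SD, n = 3). Its unirradiated libraries held 26, 6 and 0 counts in HCT116 and 8 to 11 in mixed cultures, of which 1 in each culture reached the filter level. The call in HCT116 (1.82) was lost when any library except HCT116 NIR replicate 1 was left out (1.28 to 3.49).

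Among the remaining members, LGALS3BP, a secreted glycoprotein and the member with the highest CPM, averaged 134 ± 5.91 and 174 ± 8.06 CPM in MCF10A, 218 ± 16.7 and 439 ± 35.0 CPM in HCT116, and 193 ± 10.8 and 444 ± 17.5 CPM in mixed cultures, each NIR then IR (SD, n = 3). It rose in all 3 cultures. TRIM14, an adaptor that supports MAVS signalling, was at 56.9, 56.8 and 57.7 CPM without irradiation and 40.3, 38.6 and 38.4 CPM after it in MCF10A. In HCT116 TRIM14 was at 46.2, 50.2 and 49.4 CPM without irradiation and 70.6, 65.2 and 69.6 CPM after it. Mixed cultures had TRIM14 at 45.8, 42.5 and 46.9 CPM without irradiation and 72.3, 80.4 and 81.0 CPM after it. It was lower after irradiation in MCF10A (-0.57 ± 0.063 SE, adjusted p = 9.65e-09, edgeR) and higher in HCT116 (0.50 ± 0.07 SE, adjusted p = 2.13e-06, edgeR), with no overlap between conditions. IFI35 and SP110, a nuclear body protein, rose in all 3 cultures by 0.51 to 1.15 on the log2 scale.

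Summed over the 45 members, the level was 1346 ± 15.8 CPM in MCF10A NIR and 1422 ± 8.91 in MCF10A IR (SD, n = 3). It was 1622 ± 58.2 in HCT116 NIR and 2406 ± 23.8 in HCT116 IR, and 1464 ± 51.6 in mixed NIR and 2683 ± 38.8 in mixed IR. Without LGALS3BP, EIF2AK2 and TRIM25, the 3 most abundant members, the 6 means were 851, 943, 1043, 1501, 911 and 1719 CPM in the same order. The irradiated mixed libraries had the highest sum and the unirradiated mixed libraries lay below unirradiated HCT116 on both counts. Per kilobase of exon, the members with the highest levels in irradiated mixed cultures were IFITM3, LGALS3BP and ISG15 (124.3, 123.8 and 123.2 CPM per kb).

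**Figure D3:**
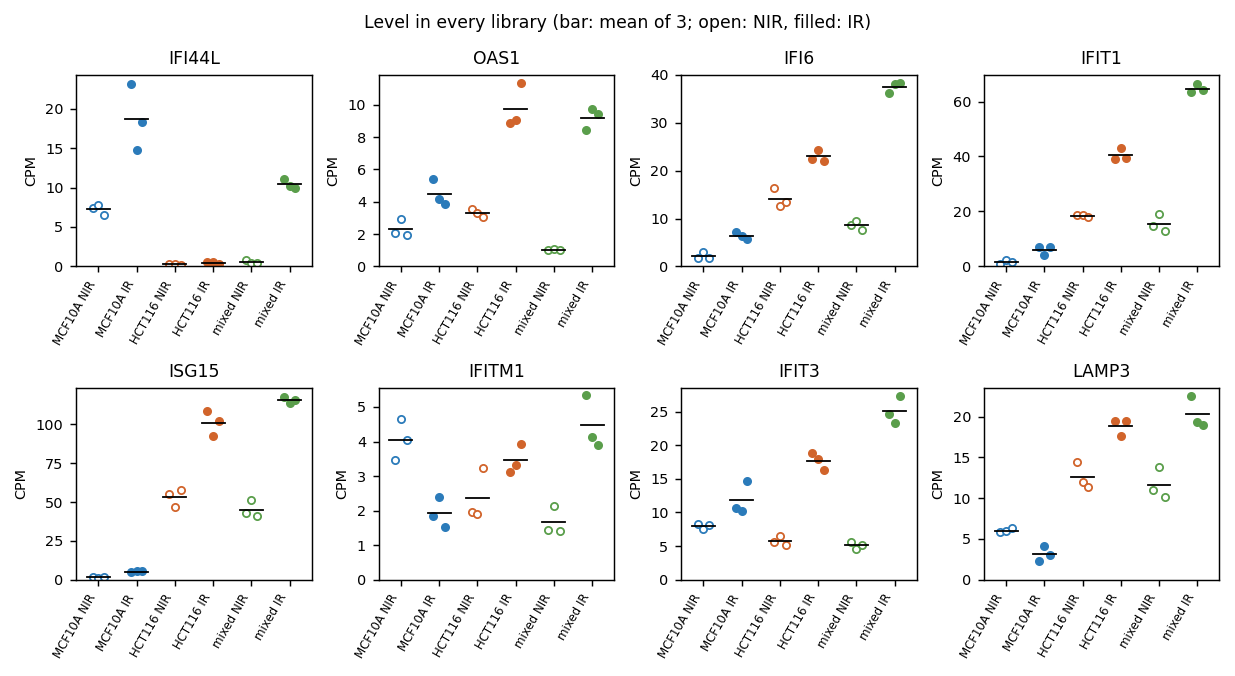
CPM of 8 members in every library (open points NIR, filled points IR, bars the means of 3), with vertical axes from 0. IFI6 and IFIT1 are highest in irradiated mixed cultures, IFI44L is highest in irradiated MCF10A and near 0 in HCT116, and IFITM1 and LAMP3 move down in MCF10A and up in mixed cultures.

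The mixed cultures were next set against both monocultures, which asks whether the mixture equals the sum of its parts. Without irradiation no member was called higher in mixed cultures than in HCT116, and after it 16 were, led by IFI44L, OAS2 and SAMD9L. Against HCT116 without irradiation, 0 of 45 members were higher and 4 were lower (IFI6, BST2, IFITM3 and OAS1), 37 did not pass and 4 were not tested. Of all 16455 genes tested in that comparison 0.887% were higher and 1.15% lower. The count of higher members was also 0 at an unadjusted p under 0.05 and with DESeq2, and 15 members were lower at an unadjusted p under 0.05. Against irradiated HCT116, 16 members were higher and 0 lower in irradiated mixed cultures, 27 did not pass and 2 were not tested, where 5.08% of 17137 genes were higher and 3.48% lower. The count of lower members was 0 at an unadjusted p under 0.05 and with DESeq2 too. The median log2 difference over tested members was -0.17 without and 0.23 after irradiation, against -0.0043 and 0.0032 over all genes.

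Without irradiation OAS1 was lowest relative to HCT116, at -1.68 ± 0.26 (SE, adjusted p = 0.00119) on the log2 scale by edgeR. IFI6 was at -0.70 ± 0.13 (SE, adjusted p = 0.00772), a call lost without HCT116 NIR replicate 1 (-0.58). BST2 was at -0.61 ± 0.14 (SE, adjusted p = 0.027) and IFITM3 at -0.38 ± 0.084 (SE, adjusted p = 0.0215) by edgeR, and each of these calls was lost with some single libraries left out: BST2 without HCT116 NIR replicate 2 or 3 or mixed NIR replicate 1 or 3 (-0.74 to -0.48), and IFITM3 without HCT116 NIR replicate 3 or mixed NIR replicate 1 or 2 (-0.44 to -0.26). With HCT116 NIR replicate 3 or with mixed NIR replicate 1 left out, 2 members were lower in place of 4. With replicate number as a block 7 were lower, with no filter on low counts or with all 18 libraries in the fit 8.

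After irradiation the largest difference from HCT116 was in IFI44L, 4.42 ± 0.21 (SE, adjusted p = 1.61e-15) on the log2 scale, followed by OAS2 at 2.34 ± 0.32 (SE, adjusted p = 7.71e-06) by edgeR. SAMD9L differed by 1.10 ± 0.30 (SE, adjusted p = 0.0177) by edgeR, a call lost without HCT116 IR replicate 3 or mixed IR replicate 1 (0.89 to 1.27). IFI6 and IFIT1 differed by 0.70 ± 0.081 (SE, adjusted p = 4.02e-07) and 0.66 ± 0.067 (SE, adjusted p = 2.44e-08) by edgeR, and their 3 mixed libraries lay above all 3 HCT116 libraries. IFI44 (0.52), OAS3 (0.51), IFIT3 (0.50) and OASL (0.41) followed. HERC5, SP110, HELZ2, DDX60, SAMD9, EIF2AK2 and ISG15 were higher by 0.19 to 0.31. Of these 16 calls, those of IFI44L, OAS2, IFI6, IFIT1, OAS3, IFIT3, OASL and SP110 held with each library left out in turn. With 1 of the 6 libraries left out, ISG15 and DDX60 were lost in 5 fits, IFI44 in 4, SAMD9 and EIF2AK2 in 3, and HERC5 and HELZ2 in 2, and IFI44 was not called by DESeq2. The count of higher members was 10 to 13 with 1 library left out, lowest without mixed IR replicate 2. The group of membrane proteins, which leaves out IFI6 and IFI27 (0 of 6), and PARP9, PARP14 and DTX3L (0 of 3) were not among the members called. With 5.08% of all genes higher, such small groups without a call are near the share of all genes.

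A weighted sum was formed from the monoculture means, using the estimated share of MCF10A RNA. The same share was used for every gene, although the ratios of line-specific genes differed. For IFI44L in irradiated mixed cultures the sum was 0.696 CPM and the measured mean 10.4 CPM, 15.0 times higher. For OAS2 it was 0.598 against 2.90 CPM, 4.84 times higher, for RSAD2 0.879 against 1.79 CPM and for SAMD9L 1.26 against 2.49 CPM. RSAD2 was not among the members called against irradiated HCT116, and its irradiated mixed libraries held 59, 91 and 46 counts. IFI6 and IFIT1 were 1.65 and 1.62 times the sum. With the share taken from the upper quartile of the markers' ratios the IFI44L sum was 0.922 CPM and the ratio 11.3, and the ratios of OAS2, RSAD2, SAMD9L, IFI6 and IFIT1 were 4.69, 2.035, 1.82, 1.66 and 1.63. In contrast OAS1, PARP9, PARP14 and IFITM3 were 0.950, 0.973, 0.982 and 0.988 times the sum. In silico mixtures of the monocultures, with 0.399% to 1.29% of MCF10A as estimated for each mixed library, also replaced HCT116 as the reference. All 41 members tested without irradiation and all 43 tested after it kept their call. Such mixtures were nearly all HCT116 counts and could hardly change a call, so this repeat is not read as support.

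The range of the monocultures gives a reference that needs no share. In irradiated cultures, in 19 of the 45 members all 3 mixed libraries lay above every library of both monocultures, and in 0 members they lay below every one. Among the 15117 genes at 1 CPM or more, 8.35% were above and 3.1% below in this sense, against 18 and 0 of the 42 members at that level. Without irradiation, 0 members were above and 6 below (IFI44, IFITM3, OAS1, PARP9, DTX3L and PLSCR1), where 4.07% of 14750 genes were above and 2.61% below. IFI44L lay between the monocultures after irradiation, below irradiated MCF10A.

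**Figure D4:**
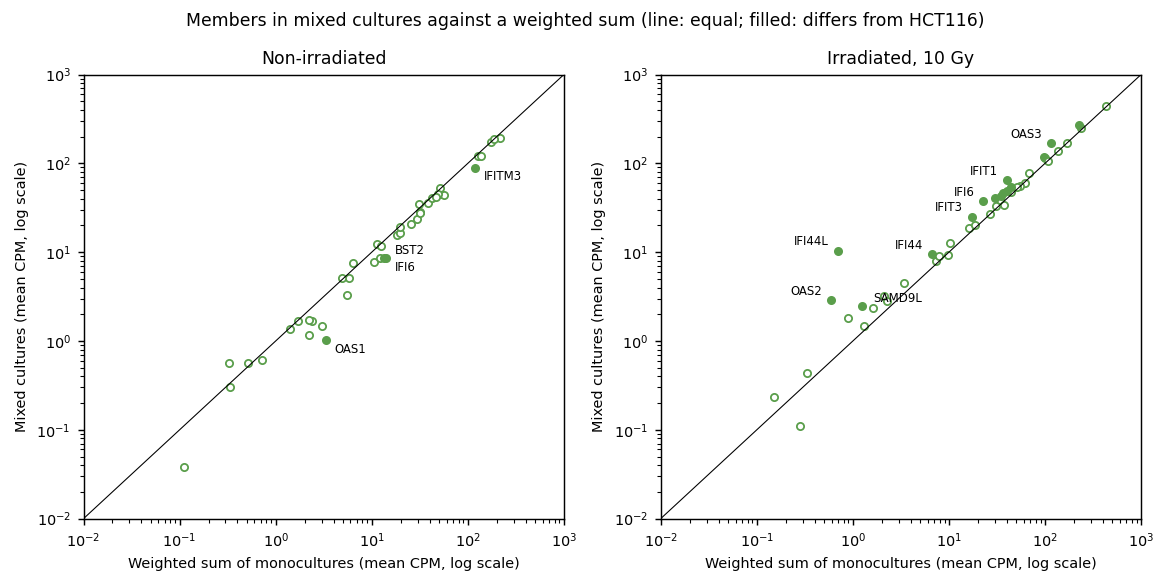
Mean CPM of each member in mixed cultures (vertical) against the share-weighted sum of the monocultures (horizontal), both on log axes, without irradiation and after 10 Gy. Filled points differed from HCT116 (adjusted p under 0.05), and the line marks equality. Members at 0 on either axis are left out. After irradiation IFI44L and OAS2 lie farthest above the line, and without it OAS1 lies farthest below among the filled points.

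Against MCF10A, mixed cultures differed in most members, as they did in most genes. Without irradiation 20 members were higher and 18 lower than in MCF10A, where 37.9% of all 16411 genes were higher and 36% lower. Of these, 4 higher (IFI27, RSAD2, HERC5 and EPSTI1) and 1 lower (SAMD9L) had libraries of the lower group below the filter level. Among the 36 members with all libraries at that level 16 were higher and 17 lower, against 33.5% and 39.5% of genes so restricted. After irradiation 28 were higher and 7 lower, where 38.3% of 17242 genes were higher and 36.4% lower. With upper-quartile scaling the share of higher genes among all called was 61.6% in place of 51.3% without irradiation, and with library size alone 62.7% in place of 51.2% after it. The 7 lower members were DTX3L, IFI44L, IFITM2, PARP14, SAMD9L, SP110 and UBA7. SP110 (-0.25) was not called with upper-quartile scaling, library size alone or all 18 libraries (up to -0.018) and PARP14 (-0.29) not with library size alone (-0.058). The count was 6 with upper-quartile scaling and 5 with library size alone.

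The monocultures themselves differed in most members, as they did in most genes. Without irradiation 21 members were higher and 16 lower in HCT116 than in MCF10A, where 38.7% of 16568 genes were higher and 36.1% lower. After irradiation 28 were higher and 11 lower, where 38.1% of 16932 genes were higher and 36.8% lower. Of these without irradiation, 5 higher (IFI27, MX1, RSAD2, HERC5 and EPSTI1) and 2 lower members (IFI44L and SAMD9L) had libraries of the lower line below the filter level. Among the 35 members with all libraries at the filter level 16 were higher and 14 lower, against 33.9% and 40.1% of genes so restricted. The 14 lower are near that share. HERC5 stood out at a log2 difference of 7.08 ± 0.18 (SE, adjusted p = 2.17e-16) without irradiation by edgeR, and ISG15 followed at 5.00 ± 0.14 (SE, adjusted p = 8.09e-16). On the other side were IFI44L at -4.79 ± 0.28 (SE, adjusted p = 2.70e-11) and SAMD9L at -3.90 ± 0.53 (SE, adjusted p = 2.79e-06) by edgeR. The calls of HERC5, IFI44L and SAMD9L are not read as support, because some libraries of the lower line were below the filter level. IFIT3, IFIT5, IFITM1, IFITM3, EIF2AK2, PLSCR1 and TRIM14 were lower in HCT116 without irradiation and higher after it. The later calls of IFIT3, IFITM1, IFITM3 and PLSCR1 were each lost with some single libraries left out and with DESeq2. PLSCR1's lower level without irradiation (-0.24) was not called with upper-quartile scaling or library size alone (up to -0.040). With 1 library left out the log2 differences after irradiation ranged from 0.23 to 0.52 for IFIT3, 0.46 to 0.80 for IFITM1, 0.033 to 0.20 for IFITM3 and 0.12 to 0.20 for PLSCR1. With upper-quartile scaling or with library totals and no further factor, the median log2 difference over all genes was 0.25 without irradiation, against 0.05 with TMM, and 0.22 and 0.27 after it, against 0.04. The share of higher genes among all called went from 51.8% to 62.4% and 62.2% without irradiation, and from 50.9% to 60.2% and 62.4% after it. Relative to that shift the members' median was 0.29 without irradiation, and 0.38 after it, under each of the 4 scalings. SAMD9 and HELZ2, lower in irradiated HCT116 by 0.14 and 0.17 on the log2 scale, changed sign under both scalings.

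Whether the lines responded differently was tested as a difference of responses. The log2 fold change after irradiation was higher in HCT116 than in MCF10A for 17 members and lower for 10, with 16 not called and 2 not tested, where 15.4% of 18179 genes were higher and 21.9% lower. The median difference was 0.13 over the members tested and -0.10 over all genes. All 6 tested in the group of membrane proteins and all 3 of PARP9, PARP14 and DTX3L had the higher fold change in HCT116. For PLSCR1 that was a smaller negative value (-0.14, not called, against -0.61). IFI6 and IFI27, membrane proteins grouped apart, had the lower fold change there (-0.89 and -3.69). Among members of at least 5 CPM the largest were LAMP3 (1.47 ± 0.22 SE, adjusted p = 8.03e-06), TRIM14 (0.99 ± 0.09 SE, adjusted p = 2.64e-09) and IFIT3 (0.99 ± 0.20 SE, adjusted p = 2.99e-04) by edgeR. In the opposite direction were IFI27 (-3.69 ± 0.34 SE, adjusted p = 4.23e-09), HERC5 (-1.62 ± 0.35 SE, adjusted p = 6.68e-04) and UBA7 (-1.01 ± 0.36 SE, adjusted p = 0.0293) by edgeR. The 10 include IFI27, RSAD2, HERC5 and MX1, whose unirradiated MCF10A libraries were in part or all below the filter level. IFI27 and RSAD2 reached it in 0 of 3 of them, HERC5 in 1 of 3 and MX1 in 2 of 3. These calls are not read as support. The UBA7 call was lost in 8 of 12 fits with 1 library left out (-1.31 to -0.81), with no filter and with all 18 libraries. BST2 was lost in 7 of 12 such fits (0.47 to 1.18), with the replicate number as a block and on halved counts. MX1 was lost in 6 of 12 (-1.74 to -1.03) and under that block. IFIT1 was lost in 3 of 12 (-1.23 to -0.57) and with DESeq2, and DDX60 and SAMD9 in 2 of 12 each.

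The log2 fold change was higher in mixed cultures than in HCT116 for 10 members and lower for 0, with 33 not called and 2 not tested, where 0.681% of 18072 genes were higher and 0.149% lower. The median difference was 0.41 over the members tested and 0.02 over all genes. For the lower direction the count was 0 at an unadjusted p under 0.05 and with DESeq2 as well. This comparison shares the HCT116 libraries with the one above. The largest differences were in IFI44L (3.53 ± 0.49 SE, adjusted p = 2.03e-04), OAS2 (2.19 ± 0.53 SE, adjusted p = 0.0453), OAS1 (1.59 ± 0.24 SE, adjusted p = 5.38e-04), IFI44 (1.54 ± 0.31 SE, adjusted p = 0.0113) and MX1 (1.53 ± 0.36 SE, adjusted p = 0.0377) by edgeR. IFI6, IFI27, OASL, IFIT1 and OAS3 followed with 1.39, 1.04, 0.92, 0.91 and 0.59. For OAS1, IFI27 and MX1 the irradiated mixed cultures were not called different from irradiated HCT116 (-0.09, 0.29 and 0.61 on the log2 scale). Their unirradiated mixed means were lower than in HCT116, at 1.02 against 3.32 CPM for OAS1, 3.25 against 5.58 CPM for IFI27 and 1.17 against 2.24 CPM for MX1. The irradiated mixed libraries of IFI27 and MX1 still lay above every library of both irradiated monocultures. Unirradiated mixed means were also lower than in HCT116 for IFI44, IFI6, OASL, IFIT1 and OAS3, and higher for IFI44L and OAS2. With 1 library left out 6 to 12 members were called, 6 without HCT116 NIR replicate 1, mixed NIR replicate 1 or mixed IR replicate 2, and 18 with no filter on low counts. IFI44L, IFI6, IFIT1, OAS1 and OAS3 were called in each of those 12 fits. MX1 was lost in 11 of them (1.33 to 1.62), OAS2 in 10 (1.95 to 2.41) and IFI27 in 9 (0.81 to 1.21). MX1 and OAS2 were also lost with the replicate number as a block, OAS2 on halved counts and MX1 with all 18 libraries. IFI44 was lost without mixed IR replicate 2 (1.20), and OASL without HCT116 NIR replicate 1 or mixed NIR replicate 1 (0.70 to 1.06).

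The calls were also counted by whether the promoter window held the shorter form. In irradiated mixed cultures 27 of 28 members with a match and 8 of 9 without one were called higher. In MCF10A 16 with a match rose and 7 fell, and 6 without one rose and 0 fell. Higher levels in irradiated mixed cultures than in irradiated HCT116 were called for 11 of 28 with a match and 3 of 9 without one. Over all genes 26.2% were higher and 29.2% lower in MCF10A, and 24% were higher in mixed cultures. Against irradiated HCT116, 5.08% of all genes were higher. The 7 that fell in MCF10A are near the share of all genes. The 16 include IFI27, MX1, RSAD2 and HERC5, and the 8 include SAMD9L, with unirradiated libraries below the filter level. These counts are descriptions with no test.

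The genes that produce, sense and carry the interferon signal were examined from a separate list of 42. In MCF10A 14 of the 30 tested rose and 2 fell, in HCT116 9 of 28 rose and 9 fell, and in mixed cultures 13 of 30 rose and 5 fell. Over all genes the shares higher and lower were 26.2% and 29.2% in MCF10A, 25.3% and 27.2% in HCT116, and 24% and 25.4% in mixed cultures, so the HCT116 counts are near the background. Interferon ligands were near the limit of counting: IFNB1 averaged at most 0.0569 CPM in any group, IFNG was listed at 0 in all libraries, and IFNL1 averaged 0.232 and 0.304 CPM in HCT116 and 0.0185 and 0.418 CPM in mixed cultures, NIR then IR. Among the ligands IFNE, an epithelial type I interferon, was called in MCF10A, where it rose from 0.515 ± 0.194 to 2.56 ± 0.0275 CPM (SD, n = 3, log2 fold change 2.28 ± 0.36 SE, adjusted p = 3.47e-06, edgeR). The type I receptor gene IFNAR1 rose by 0.16 in MCF10A and 0.28 in HCT116, and IFNLR1, the type III receptor, rose in MCF10A (0.60) and fell by 0.81 in HCT116 on the log2 scale.

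STAT2 and IRF9, which act in one complex, rose in MCF10A (0.87 and 0.67) and in mixed cultures (0.44 and 0.52) and were not called in HCT116. JAK1 rose in MCF10A (0.49) and fell by 0.33 in HCT116 and by 0.32 in mixed cultures on the log2 scale. The DNA sensor CGAS averaged 28.6 and 27.4 CPM in MCF10A NIR and IR and 0.0622 and 0.0665 CPM in HCT116, and its adaptor STING1 was at 23.0 to 55.0 CPM in all group means. The RNA sensor gene RIGI rose in MCF10A (0.84), HCT116 (1.07) and mixed cultures (2.08). TLR3, which senses double-stranded RNA in endosomes, rose by 2.62 in HCT116 and 1.95 in mixed cultures. The inhibitor SOCS3 fell by 1.52 in HCT116 and by 1.04 in mixed cultures on the log2 scale. TREX1, which degrades cytosolic DNA, was listed at 0 in every library. The annotation used for counting was not given in the sources used here, so this 0 is not read as absence of the transcript.

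In irradiated mixed cultures 5 of 31 pathway genes tested were higher than in irradiated HCT116 and 1 was lower, against 5.08% and 3.48% of all genes. DHX58 (0.99), IRF7 (0.54), IFIH1 (0.34) and ADAR (0.20) were among those higher on the log2 scale, and TLR3 was at -0.31. The log2 fold change was higher in mixed cultures than in HCT116 for 2 pathway genes and lower for 1, against 0.681% and 0.149% of all genes. That of RIGI was higher in mixed cultures than in HCT116 by 1.02 ± 0.23 (SE, adjusted p = 0.025), and that of TLR3 was lower, at -0.66 ± 0.16 (SE, adjusted p = 0.0494), by edgeR.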

How the data were processed

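RNA from 18 cultures was sequenced as stranded, paired-end poly(A) libraries, per the labels' protocols. The deposited values are whole-number read counts per gene symbol. The submitters' processing notes name fastp, STAR, featureCounts and GRCh38. Versions, annotation, strand setting and the counting of mates are not given in the sources used here. Between 1 and 10, 68.3% of 104840 deposited counts were even, so tests were repeated on halved counts. Among members still tested there, the calls lost were in the response differences. They were BST2 for HCT116 minus MCF10A and OAS2 for mixed cultures minus HCT116, and a few other calls were gained.

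Counts were tested with edgeR 4.0.16 (quasi-likelihood test, 2-sided, TMM, filterByExpr, R 4.3.3) on the groups compared. Benjamini-Hochberg adjustment ran over all genes tested, at 0.05. SE is that of the log2 fold change. DESeq2 1.42.0 was an alternative. The code was tested on simulated data. CPM used the library total. The share of MCF10A RNA was the median ratio over 138 to 152 line-specific genes (at least 20 CPM in a line, and never as much as 1 CPM in a library of the other line, members left out). Replicate libraries differed by more than sampling noise (chi-square per gene 4.77 to 14), and p-values measure the spread between cultures of 1 line.

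Values in every library are given for the 3 called members with the largest change in each direction among those of at least 5 CPM, in each irradiation comparison, response difference and comparison of mixed with HCT116, and for 1 representative of each kind of protein. OAS2 was added after its values were seen. Some measured genes outside the members are not reported here. The members and lists were chosen with earlier results of these data known. Promoter windows come from RefSeq (GRCh38.p14) and gene positions also from RefSeq. Exon lengths, exon overlaps and shared 75-base words come from GENCODE v29. Same-numbered replicates did not deviate together (correlations -0.043 to 0.109 over 15 pairs of groups), so no block was used.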

Additional observations from a re-analysis of the deposited data

Results flagged for a closer look

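For 37 pairs of gene and comparison the response to irradiation differed between kinds of culture by an interaction test over all genes (edgeR, adjusted p under 0.05). Values are differences of log2 fold changes.

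The log2 fold change was higher in HCT116 than in MCF10A for IFIT3 (0.99), IFIT5 (0.74), IFITM1 (1.58), IFITM2 (0.63), IFITM3 (0.70), BST2 (0.85), DDX60 (0.37), SAMD9 (0.26), PARP9 (0.68), PARP14 (0.78), DTX3L (0.81), PLSCR1 (0.40), LGALS3BP (0.59), TRIM14 (0.99), TRIM25 (0.48), LAMP3 (1.47) and EIF2AK2 (0.60). It was lower in HCT116 for IFI6 (-0.89), IFI27 (-3.69), IFIT1 (-0.87), ISG15 (-0.99), MX1 (-1.49), RSAD2 (-3.29), HERC5 (-1.62), DDX60L (-0.83), HELZ2 (-0.61) and UBA7 (-1.01). Those of IFI27, RSAD2, HERC5 and MX1 are not read as support, because unirradiated MCF10A libraries were below the filter level. Of the 17 higher fold changes, 6 were of the group of membrane proteins. That group leaves out IFI6 and IFI27, which were among the lower.

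The log2 fold change was higher in mixed cultures than in HCT116 for IFI6 (1.39), IFI27 (1.04), IFI44 (1.54), IFI44L (3.53), IFIT1 (0.91), MX1 (1.53), OAS1 (1.59), OAS2 (2.19), OAS3 (0.59) and OASL (0.92). For no member was it called lower by edgeR or by DESeq2, and the count at an unadjusted p under 0.05 was 0. Both sets of differences use the same HCT116 libraries. The share of MCF10A RNA was 0.447% in unirradiated and 1.24% in irradiated mixed libraries, and its part in these differences was not tested.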

How the results depend on the processing

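Of 368 values recomputed under alternatives for the counts of members called and the MCF10A share, 352 stayed within the tolerance and 16 did not (a count within 1.5 times the main count, a share within 1 SD of its replicates). Members lower in HCT116 than in MCF10A after irradiation numbered 7 with upper-quartile scaling and 7 with library size alone, against 11. In that comparison SAMD9 moved from -0.14 to 0.040 and 0.088 and HELZ2 from -0.17 to 0.0096 and 0.057 (log2) under those scalings, of which none passed the test. Members lower in mixed cultures than in HCT116 without irradiation numbered 8 with no filter, 8 with all 18 libraries in the fit, 7 with the replicate number as a block, and 2 to 4 with 1 library left out, against 4. Members higher in mixed cultures than in HCT116 after irradiation numbered 10 to 13 with 1 library left out, against 16. Members with a higher log2 fold change in mixed cultures than in HCT116 numbered 18 with no filter and 6 to 12 with 1 library left out, against 10. The MCF10A share was 0.345% without and 1.07% with irradiation from markers of at least 50 CPM, and 1.08% and 2.48% from the upper quartile of the markers' ratios.

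Genes called over the whole table between mixed cultures and HCT116 without irradiation numbered 335, against 716 with the replicate block, 671 with no filter, 768 with all 18 libraries and 520 with DESeq2. After irradiation they numbered 1467, against 2220 with the replicate block and 866 without mixed IR replicate 2. For the response difference they numbered 150, against 336 with no filter, 293 with DESeq2 and 64 to 197 with 1 library left out. Among values of single genes, 7258 of 7575 kept direction and call, 216 lost the call, 97 gained it and 4 reversed. The cause was not tested. Members under about 1 CPM rest on few reads, and XAF1 and RTP4 could not be tested.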
